A study of Mus musculus with 7 samples.

Results

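A set of 9 genes named for the double-positive stage of thymocyte development was followed in whole spleens: Arpp21, Aqp11, Themis, Tespa1, Cd1d1, Cd69, Cd5, Cd24a and Thy1. They were taken by gene symbol from the deposited gene tables, where 9 of 9 were found among 24062 genes and 9 of 9 passed the filter on low counts. The mutant group was 3 enlarged spleens of mice with the genotype Vav1-iCre;Brca1F22-24/F22-24, and the wild-type group was 4 spleens labelled C57BL6 and Brca1+/+, all from animals 2 to 3 months old. Vav1-iCre expresses Cre recombinase throughout the blood lineages and its target is the Brca1 segment of exons 22 to 24. Recombination in other cells was not examined here. Recombinase, allele and enlarged spleen occur together in the mutant group, and the labels name C57BL6 for wild type only, so their effects cannot be told apart. The labels call each library a separate spleen and give no further matching, so the tests rest on the variation among these 7 spleens, which may in part be technical.

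Thymocytes pass from a stage without the coreceptors CD4 and CD8 to a stage that carries both, and then keep only one of them. Double-positive cells rearrange the alpha chain of the T cell receptor, die unless that receptor gives a weak signal (positive selection), and leave the thymus only after they mature. A normal spleen holds mature T cells and few thymocytes. Several of the 9 genes also serve other blood cells: Cd1d1 and Cd5 are made by some B cells, Cd24a by immature B cells and red cell precursors, and Cd69 by many activated lymphocytes.

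Libraries held 26889712 to 63612532 counts. B cell markers, which a normal spleen holds in quantity, summed to 4772 to 6328 CPM in wild type (counts per 1000000 after scaling) and to 72.6 to 294 CPM in the mutants, where 12 of 12 of them fell. Erythroid markers varied inside both groups, from 3913 to 54734 CPM in wild type and from 6275 to 30733 CPM in the mutants. Pancreas markers summed to 498 CPM in wild-type 1 and 15012 CPM in wild-type 2 and to 9.31 to 61.8 CPM in the other 5 libraries. Thymic epithelium was looked for because thymocytes normally develop among it. Its defining factor Foxn1 had 0 counts in all 7 libraries, which allows up to 0.04 to 0.11 CPM by counting error, and its proteasome subunit Psmb11 stood at 0.619 to 0.67 CPM in mutant spleens 1 to 3, against 0.974 to 1.38 CPM in wild type. Of 7 thymic epithelium markers tested, 5 fell and 1 rose (Ccl25, a chemokine that draws progenitors to the thymus), where 28.9% of all genes tested fell and 28.5% rose. All 11 summed to 18.4 to 25.8 CPM in mutant spleens 1 to 3, against 37.0 to 41.5 CPM in wild type. B cell and myeloid markers fell in the same spleens, and their part in these values was not tested.

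The genes did not move as one. Arpp21, Aqp11, Themis and Thy1 rose in the mutant spleens, Cd1d1 and Cd69 fell, and Tespa1, Cd5 and Cd24a did not pass the test. That is 4 of 9 higher where 28.5% of the 15188 genes tested were called higher, and 2 of 9 lower where 28.9% were called lower, by edgeR's quasi-likelihood test at a Benjamini-Hochberg adjusted p under 0.05. Called in either direction were 6 of 9, beside 57.4% of all genes, so the number of calls was near that of the table as a whole. The median log2 fold change (mutant minus wild type throughout) was 0.60 over the 9 genes and -0.02 over all genes tested. The same 6 genes did not overlap between the groups in CPM, 4 of them higher and 2 lower, where 29.2% and 32.6% of all genes tested did so (61.7% together). In bulk tissue a change in the number of cells of a type and a change in RNA per cell cannot be told apart.

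**Figure D1:**
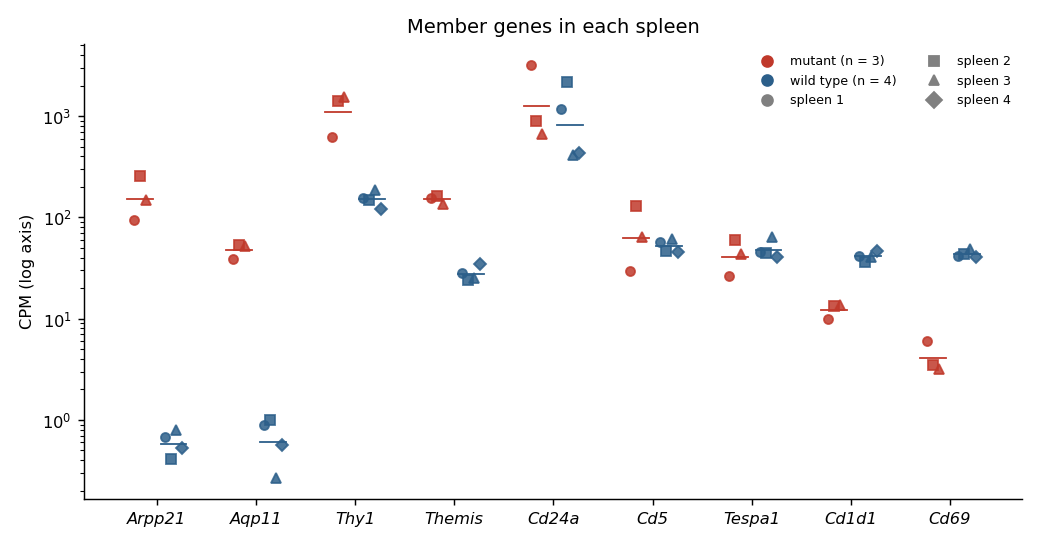
CPM of each gene (log axis) in the 3 mutant spleens (red) and the 4 wild-type spleens (blue), with a marker shape for each spleen number and a line at the geometric mean. Arpp21 and Aqp11 lie at 1.00 CPM or less in all 4 wild-type spleens and between 38.9 and 256 CPM in the mutants, while Cd24a, Cd5 and Tespa1 overlap.

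Upstream sequences are shown for Aqp11 and Themis, which rose, beside Cd5, which was not called. RefSeq windows on GRCm38.p6 (the sequence of mm10), 250 bases before to 50 after a start site, were at hand for 4 of the 9 genes: Aqp11 and Cd5 with 1 start, Themis with 2 and Arpp21 with 9. Each printed run lies upstream of the start that equals the deposited gene start, is cut where an annotated exon begins, and is written on the strand of the gene, with capitals marking motif letters on either strand. The regions are chr7:97738290-97738497 (minus strand) for Aqp11, chr10:28668145-28668359 (plus strand) for Themis and chr19:10739003-10739224 (minus strand) for Cd5.
Aqp11: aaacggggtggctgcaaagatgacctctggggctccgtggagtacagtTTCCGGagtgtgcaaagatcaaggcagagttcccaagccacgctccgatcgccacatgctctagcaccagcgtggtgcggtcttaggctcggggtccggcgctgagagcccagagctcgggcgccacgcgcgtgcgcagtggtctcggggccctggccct
Themis: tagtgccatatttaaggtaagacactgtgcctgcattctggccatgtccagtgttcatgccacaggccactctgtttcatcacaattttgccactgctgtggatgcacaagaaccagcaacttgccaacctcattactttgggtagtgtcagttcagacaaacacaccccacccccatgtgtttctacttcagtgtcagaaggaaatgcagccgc
Cd5: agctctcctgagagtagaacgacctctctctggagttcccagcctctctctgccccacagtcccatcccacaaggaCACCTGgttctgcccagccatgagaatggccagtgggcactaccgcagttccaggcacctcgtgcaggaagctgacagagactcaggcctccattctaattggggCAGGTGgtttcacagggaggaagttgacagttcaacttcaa

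The letters searched on both strands were the E boxes CAGGTG and CAGCTG of E proteins, CTTTGA for TCF1, TGTGGT for Runx, CCGGAA for Ets and AGATAA for GATA factors. Aqp11 held an Ets match on the opposite strand, starting 202 bases before its start. Cd5 held CAGGTG at 174 (opposite strand) and 69 bases before its start, and Themis held none of the letters in either window. Of the 9 Arpp21 windows, which overlap in part, 6 had a CAGGTG. The windows of starts 112187766, 112187926 and 112187929 share the same match, and those of 112217261 and 112217351 share theirs. The 6 are therefore not separate sites, and no Arpp21 start equals the deposited gene start. Among all 32851 windows of that length, 20.2% held CAGGTG and 14.9% held CCGGAA. The counts sum over each gene, so they do not tell which Arpp21 start was used, and a match of letters is not a binding site.

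Arpp21 also hosts a microRNA. Mir128-2 lies inside the Arpp21 span, on the same strand and in no annotated Arpp21 exon. Its mature product miR-128-3p (chr9:112118644-112118664, minus strand, GRCm38.p6, RefSeq) is shown with the seed, bases 2 to 8, in capitals.
miR-128-3p: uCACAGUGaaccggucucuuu
The row of Mir128-2 held 0 counts in all 7 libraries. These are counts of RNA-seq reads over a short intronic hairpin, and the level of the mature microRNA was not measured.

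Arpp21 and Aqp11 had the largest increases of the 9. Arpp21 (chromosome 9, 112065091 to 112234841, minus strand, mm10) encodes an RNA-binding phosphoprotein that is abundant in thymocytes and in the striatum. It stood at 93.9, 256 and 150 CPM in mutants 1 to 3, and at 0.672, 0.407, 0.797 and 0.528 CPM in wild-type spleens 1 to 4. All 3 mutants were high and mutant 2 was highest, whereas wild type held 11 to 40 raw counts per library. The log2 fold change was 8.10 (SE 0.44, adjusted p = 1.45e-04, edgeR), or 274-fold, and ranked 19 among the increases of all genes tested. The predicted transcript 2900079G21Rik on the opposite strand overlaps Arpp21, with 1 to 91 counts per library, against 4552 to 7259 Arpp21 counts in the mutant libraries.

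Aqp11 (chromosome 7, 97726379 to 97738247, minus strand) encodes an aquaporin of the endoplasmic reticulum membrane, also known from kidney. Its mutant levels were 38.9, 53.5 and 52.3 CPM and its wild-type levels 0.884, 1.00, 0.266 and 0.568 CPM, with no overlap. Aqp11 rose by 6.19 (SE 0.44, adjusted p = 1.54e-04, edgeR), or 72.9-fold, and varied less among the mutants (CV 16.8%) than Arpp21 did (49.3%). The other aquaporin genes in the list of relatives, Aqp1, Aqp3 and Aqp9, did not pass the test. Of the genes listed beside Arpp21, R3hdm1 rose, and R3hdm2 and R3hdm4 did not pass. Arpp19, which is alike in name only, rose too.

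Themis and Tespa1 encode T cell proteins that are both needed for positive selection. Themis rose and Tespa1 did not pass the test. Themis (chromosome 10, 28668395 to 28882749, plus strand) acts with the adaptor Grb2 and the phosphatase Shp1 to set receptor signal strength. It stood at 154, 164 and 137 CPM in mutant spleens 1 to 3, against 28.1, 23.9, 25.1 and 34.4 CPM in wild type. The mutants were close together (CV 9.13%), and each exceeded each wild-type spleen. The log2 fold change was 2.44 (SE 0.16, adjusted p = 1.45e-04, edgeR).

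Tespa1 (chromosome 10, 130322852 to 130362642, plus strand) links receptor signalling to calcium release through inositol trisphosphate receptors. It stood at 26.3, 59.5 and 43.6 CPM in mutant spleens 1 to 3, against 45.2, 44.2, 64.2 and 40.7 CPM in wild type. Mutant 1 was lowest and wild-type 3 highest, and the groups overlapped. Its log2 fold change was -0.17 (SE 0.29, 95% interval -0.84 to 0.50, adjusted p = 0.635, edgeR), and 0.18 without mutant 1 (adjusted p = 0.514, edgeR). The intervals of Themis (2.07 to 2.82) and Tespa1 did not meet, although the difference between the genes was not itself tested.

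Of their 16 listed signalling partners, 8 rose, 4 fell and 4 did not pass, with a median of 0.29, where 28.5% of all genes tested were called higher and 28.9% lower. The number that fell was near the share over all genes. Lat, the membrane adaptor of the T cell receptor, rose from 80.8 to 130 CPM in wild type to 242 to 613 CPM in the mutants (2.28, SE 0.34). The fallers were Grb2 (-0.50, SE 0.13), Ptpn6, which encodes Shp1 (-0.73, SE 0.22), and the calcium channels Itpr1 (-1.04, SE 0.26) and Itpr3, while Itpr2 rose. Themis2, the relative of Themis used by B cells and macrophages, fell by 3.60 on the log2 scale (SE 0.74), from 122 to 162 CPM in wild type to 22.4, 10.01 and 1.79 CPM in mutants 1 to 3. Myeloid markers (7 of 9 tested fell) and B cell markers moved with Themis2, and their part in it was not tested.

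Thy1 (chromosome 9, 44043384 to 44048579, plus strand) encodes the surface glycoprotein that marks mouse T cells and thymocytes, with more on thymocytes. It stood at 619, 1404 and 1532 CPM in mutant spleens 1 to 3, against 157, 150, 186 and 121 CPM in wild type. Mutant 1 was lowest of its group and still more than any wild-type spleen. Thy1 rose by 2.95 (SE 0.33, adjusted p = 3.99e-04, edgeR), or 7.72-fold.

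Cd5 (chromosome 19, 10718143 to 10738974, minus strand) encodes a receptor that dampens T cell receptor signalling and whose amount follows the strength of that signal in thymocytes. It stood at 29.6, 129 and 63.9 CPM in mutant spleens 1 to 3, against 56.6, 46.9, 61.5 and 45.4 CPM in wild type. Mutant 1 was under and mutants 2 and 3 over all wild-type spleens, so the mutant CV was 68.2% against 14.7%. Its log2 fold change was 0.50 (SE 0.43, 95% interval -0.49 to 1.49, adjusted p = 0.348, edgeR), which became 0.97 without mutant 1 (adjusted p = 0.0222, edgeR, against 0.0222 to 0.791 over all alternatives) and -0.19 without mutant 2. Cd6, the related neighbour of Cd5, stood at 35.8, 118 and 96.6 CPM in mutant spleens 1 to 3, against 48.5 to 65.7 CPM in wild type (0.53, SE 0.36, adjusted p = 0.235, edgeR), with mutant 1 again lowest.

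Cd69 (chromosome 6, 129267325 to 129275369, minus strand) encodes an early activation receptor that appears at positive selection and holds cells in tissue by removing the egress receptor S1pr1 from the surface. It stood at 5.96, 3.49 and 3.19 CPM in mutant spleens 1 to 3, against 42.0, 44.0, 48.8 and 41.1 CPM in wild type. Every mutant was far under the narrow wild-type range (CV 7.81%), and mutant 1 was highest among the mutants. Cd69 fell by 3.38 (SE 0.27, adjusted p = 1.75e-04, edgeR), or 10.4-fold. S1pr1 itself fell by 2.92 (SE 0.24), from 161 to 220 CPM to 35.1, 20.3 and 23.4 CPM in mutants 1 to 3.

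Cd1d1 (chromosome 3, 86995836 to 86999340, minus strand) encodes the molecule with which double-positive thymocytes present lipids to select NKT cells. It stood at 9.98, 13.4 and 13.5 CPM in mutant spleens 1 to 3, against 41.2, 36.6, 40.6 and 47.0 CPM in wild type, with no overlap. Cd1d1 fell by 1.75 (SE 0.18, adjusted p = 3.27e-04, edgeR), or 3.37-fold. Its close copy Cd1d2, with 13 to 55 counts per library, stood at 0.912 to 1.02 CPM in mutant spleens 1 to 3, against 0.481 to 0.726 CPM in wild type (0.65, SE 0.27, adjusted p = 0.071, edgeR). Reads may be shared between the copies, so the value of each is uncertain. B cell markers, from a cell type that also makes Cd1d1, fell beside it with a median log2 fold change of -5.28. Of 6 NKT markers, 4 fell (Cxcr6, Il2rb, Klrb1c and Tbx21), Cd160 rose and Zbtb16 did not pass. Among all genes tested, 28.9% were called lower and 28.5% higher. NK cell markers, which share Klrb1c with the NKT list, fell for 8 of 9. The part of these cell types in the Cd1d1 and Cd69 results was not tested.

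Cd24a (chromosome 10, 43579169 to 43584265, plus strand) encodes heat-stable antigen, a small lipid-anchored surface protein that thymocytes lose as they mature. It stood at 3228, 906 and 669 CPM in mutant spleens 1 to 3, against 1189, 2200, 413 and 431 CPM in wild type. The highest spleens were mutant 1 and wild-type 2, and the groups overlapped, with CVs of 88.3% and 79.6%. The log2 fold change was 0.60 (SE 0.74, 95% interval -1.13 to 2.33, adjusted p = 0.519, edgeR), and without mutant 1 it was -0.35 (adjusted p = 0.693, edgeR).

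Erythroid markers were high in the same spleens as Cd24a. Alas2, which encodes the first enzyme of heme synthesis in red cell precursors, stood at 1285, 219 and 309 CPM in mutant spleens 1 to 3, against 843, 2150, 160 and 203 CPM in wild type. The 3 spleens with the most Cd24a (mutant 1, wild-type 2 and wild-type 1) were the 3 with the most Alas2 and the most summed erythroid markers. Of the 13 tested erythroid markers, 0 passed in edgeR; the number with p under 0.05 before adjustment was 0 too, and DESeq2 called 0 of them, limma-voom 0 and the exact test of edgeR 0. Their part in the Cd24a values was not tested. Siglecg, which encodes a receptor for Cd24 on B cells, fell by 5.75 (SE 0.85).

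**Figure D2:**
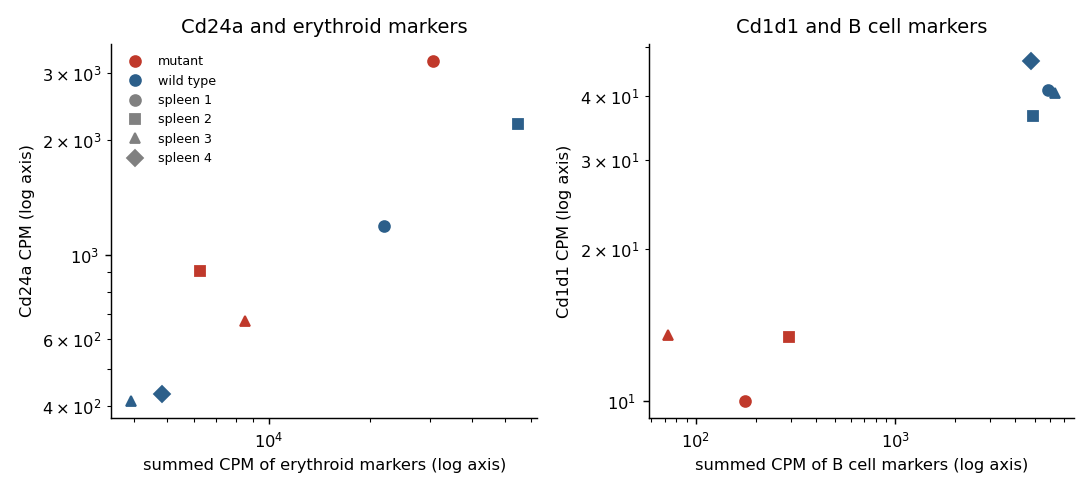
Left, Cd24a CPM against the summed CPM of 13 erythroid markers in the table, and right, Cd1d1 CPM against the summed CPM of 12 B cell markers, 1 point per spleen on log axes (mutant red, wild type blue, shape by spleen number). Cd24a is highest where erythroid markers are high in either group, while Cd1d1 and B cell markers separate the groups.

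**Figure D3:**
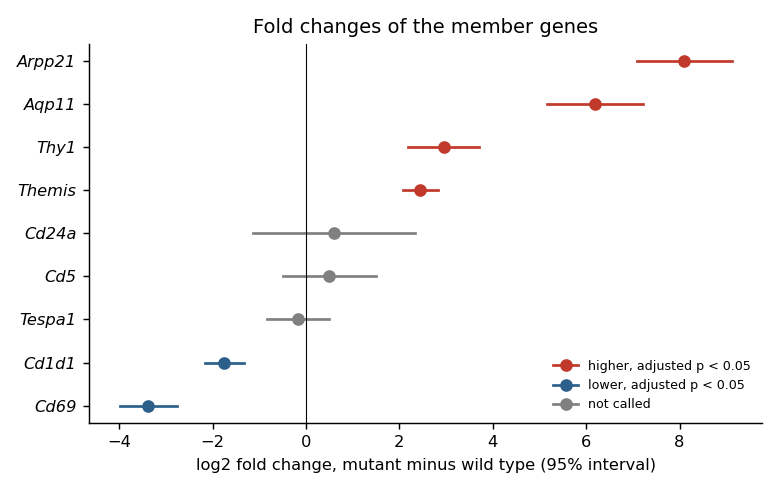
Log2 fold change of each gene, mutant minus wild type, with its 95% interval from edgeR, coloured by call. The intervals of Cd24a (-1.13 to 2.33), Cd5 and Tespa1 cross 0, and the other 6 do not.

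Levels were compared between genes only per kilobase of annotated exon (CPM divided by the union of GENCODE M21 exons, in kb). In wild type the order was Cd24a (410 ± 327, SD, n = 4), Thy1 (51.2 ± 8.93), Cd1d1 (16.1 ± 1.67), Cd5 (10.7 ± 1.57), Tespa1 (7.72 ± 1.69), Cd69 (6.75 ± 0.527), Themis (2.39 ± 0.403), Aqp11 (0.0721 ± 0.0351) and Arpp21 (0.0345 ± 0.00972). The ranges of Cd5 and Tespa1, of Tespa1 and Cd69, and of Aqp11 and Arpp21 overlapped, and the last pair stood well under the rest. In the mutants (n = 3) Cd24a (621 ± 548) and Thy1 (396 ± 165) led and overlapped, followed by Cd5 (15.1 ± 10.3), Themis (13 ± 1.19), Arpp21 (9.56 ± 4.72), Tespa1 (6.85 ± 2.64), Aqp11 (5.12 ± 0.862), Cd1d1 (4.78 ± 0.777) and Cd69 (0.647 ± 0.233). The middle genes, from Cd5 to Cd1d1, overlapped with their neighbours, and Cd69 moved to last. Arpp21 with 31 annotated transcripts has a long exon union (17428 bases), which lowers its value on this scale. Themis (11682 bases) and Aqp11 (9418 bases) had the next longest unions of the 9, which lowers their values too. The GENCODE span of Aqp11 starts at 97724006, outside the deposited span from 97726379. Its union may therefore hold bases that were not counted.

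The CD3 chains, which carry the T cell receptor signal in thymocytes and mature T cells, offered a scale inside each library. Cd3d, Cd3e, Cd3g and Cd247 rose together, by 1.73 to 1.92, from a sum of 241 to 331 CPM in wild type to 551, 1372 and 1067 CPM in mutants 1 to 3. Expressed as a percentage of the summed CD3 counts, most genes dropped: over all genes tested the median log2 difference was -1.81, with 71% of genes lower in every mutant than in every wild-type spleen and 1.67% higher. Against that background 3 of the 9 genes were higher without overlap, 4 were lower without overlap and 2 overlapped. Single libraries decided both overlaps: Themis separated as higher without wild-type 4, and Cd24a as lower without mutant 1, where its log2 difference was -2.20.

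Arpp21 was 17.02%, 18.6% and 14.1% of CD3 counts in the mutants and 0.158% to 0.241% in wild type, a log2 difference of 6.30. Its mutant spread was smaller on this scale than in CPM. Aqp11 was 7.05%, 3.90% and 4.90% against 0.0803% to 0.387% (4.56), and Thy1 was 112%, 102% and 144% against 50.2% to 58.0% (1.12). These were the 3 genes that stayed higher than wild type per CD3 count. Themis was 28.0%, 11.98% and 12.8% in the mutants and 7.59% to 14.3% in wild type, with overlap (0.71, exact permutation p = 0.171, adjusted p = 0.193 over the 9 genes).

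Lower per CD3 count were Cd69, Cd1d1, Tespa1 and Cd5. Other blood cells also make Cd69, Cd1d1, Cd5 and Cd24a, so the counts set against CD3 need not come from T cells. B cell markers fell in the same spleens, and their part in these ratios was not tested. Cd69 was 1.08%, 0.254% and 0.299% in the mutants and 14.4% to 17.05% in wild type (-5.18). Cd1d1 was 0.974% to 1.81% against 12.3% to 19.5% (-3.50). Tespa1, at 4.77%, 4.34% and 4.08% against 15.5% to 19.4% (-1.97), and Cd5, at 5.37%, 9.43% and 5.99% against 18.1% to 19.4% (-1.48), lay near the median of all genes on this scale. Cd24a ranged from 62.8% to 585% in the mutants and from 125% to 851% in wild type (-1.14, exact permutation p = 0.343, adjusted p = 0.343). The 7 differences without overlap each had a two-sided exact permutation p of 0.0571 (adjusted p = 0.0735 over 9 genes), the smallest that 3 against 4 spleens can give, so none could pass 0.05.

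**Figure D4:**
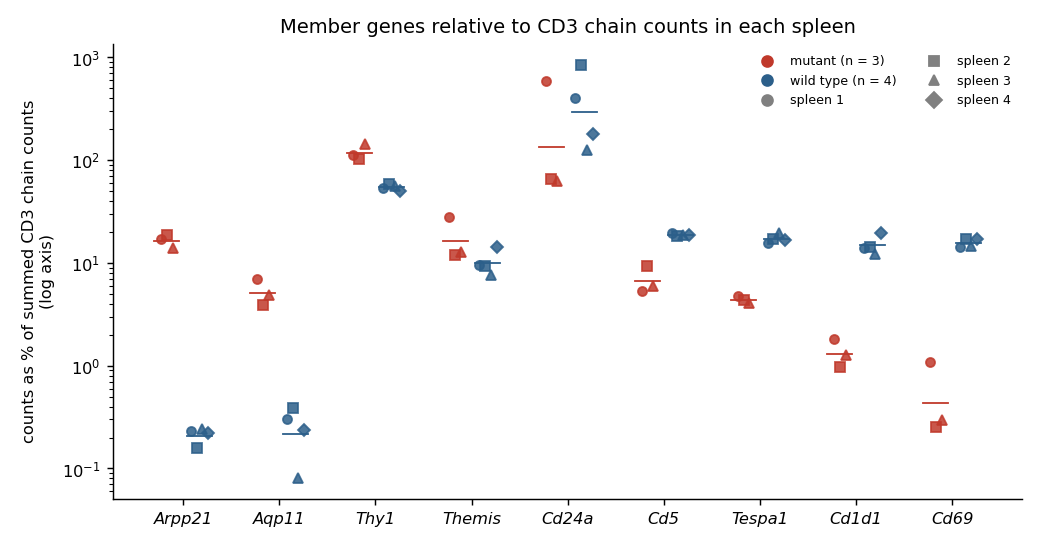
Counts of each gene as a percentage of the summed counts of Cd3d, Cd3e, Cd3g and Cd247 in the same library (log axis), mutant red and wild type blue, with lines at geometric means. Arpp21, Aqp11 and Thy1 are higher in all 3 mutants, and Cd5, Tespa1, Cd1d1 and Cd69 are lower in all 3.

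Other genes of the stage were mostly higher. Of 24 listed double-positive genes 23 were tested, 18 rose, 1 fell (Slamf1) and 4 did not pass (Cd2, Cd4, Id3 and Ly6d), with a median of 1.71. Among all genes tested, 28.5% were called higher and 28.9% lower. This list and those of the neighbouring stages were chosen with earlier results of these data known, so their counts are descriptions and not independent support. The CD3 chains, with Cd247 in both lists, had a median of 1.84. The listed genes were not set against CD3 counts, so the part of T cell content in their rise was not tested. Cd8a stood at 330, 267 and 502 CPM in mutant spleens 1 to 3, against 100.2 to 141 CPM in wild type (1.59, SE 0.23). Cd4, the other coreceptor that defines the stage, stood at 89.2, 123 and 59.2 CPM in mutant spleens 1 to 3, against 128 to 185 CPM in wild type, without overlap but short of the threshold (-0.70, SE 0.26, adjusted p = 0.0506, edgeR). Ptcra, the surrogate alpha chain of the pre-T cell receptor, stood at 4.495, 148 and 158 CPM in mutant spleens 1 to 3, against 0.33 to 0.62 CPM in wild type. Mutant 1 was thus low for Ptcra, while Arpp21, Aqp11 and Themis were high in all 3 mutants.

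The neighbouring stages gave counts to be read against the same 28.5% of all genes higher and 28.9% lower. Of 18 early double-negative genes, 7 were higher (Dntt, Dtx1, Heyl, Il2ra, Notch1, Notch3 and Nrarp), with a median of -0.88 over the list. The 5 lower were Erg, Flt3, Hhex, Mef2c and Spi1, and their number was near the share over all genes. Summed CPM of the list was 1735, 3257 and 4385 in mutants 1 to 3, against 1322 to 1469 in wild type. B cell and myeloid markers fell too, and their part in the 5 lower was not tested. Of 17 genes raised at positive selection, where Cd69 and Cd5 normally rise, 4 were higher (Cd27, Gata3, Itm2a and Tox) and 6 lower, with a median of 0.23. Both counts were near those shares. The 6 were Bcl2, Egr2, Egr3, Nfatc1, Nr4a1 and Zbtb7b. Of 15 genes of mature naive T cells, 10 fell, among them Ccr7, S1pr1 and Klf2, and Lef1 rose, with a median of -1.63. Several of these genes are also made by B cells. B cell markers (12 of 12 lower, median -5.28) and NK cell markers (8 of 9 lower, median -5.16) fell beside them, and their part in this count was not tested. Some genes stand in more than 1 list, such as Cd2, Id3 and Tox in that of positive selection and the double-positive one, Cd247 in the latter and among the CD3 chains, S1pr1 and Cd6 in those of mature naive T cells and of relatives, and Klrb1c in 3 lists.

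**Figure D5:**
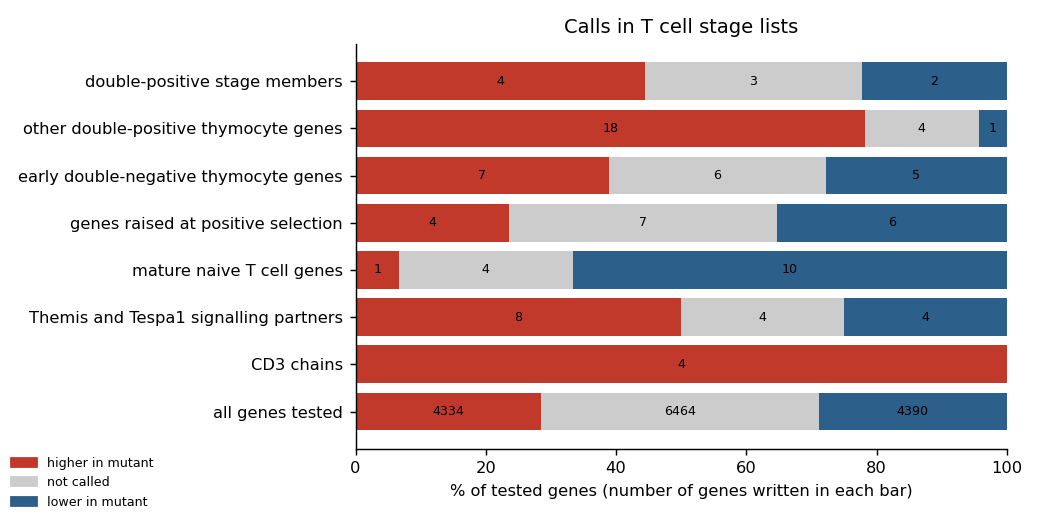
Share of tested genes called higher in mutant (red), lower in mutant (blue) or not called (grey) in each list of T cell stage genes and over all 15188 genes tested, with the number of genes in each bar. The list of other double-positive genes has 18 of 23 called higher, and that of mature naive T cells 10 of 15 called lower. Lists were chosen with earlier results of these data known.

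By Pearson's r of log2 CPM over the 7 libraries, the gene most like each member among 10807 named genes was Nif3l1 for Arpp21 (0.9981), Fam216a for Aqp11 (0.9978), Ikzf2 for Themis (0.9977), Egln3 for Thy1 (0.9995), Tet2 for Cd1d1 (0.9991) and Zfp827 for Cd69 (0.9996). For the genes that were not called it was Nadk2 for Cd24a (0.9915), Ggta1 for Tespa1 (0.9823) and Nfya for Cd5 (0.9803). Such values describe the shape of a pattern over the libraries and not the size of a change. With 7 libraries in 2 groups, those of the called genes describe mainly whether a gene separates the groups in the same direction. The genes that were not called overlapped between the groups, so their values follow differences among single spleens.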

How the data were processed

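Total RNA of 7 spleens was sequenced. Reads were handled with TopHat2 2.0.12, featureCounts (Subread 1.4.6), edgeR and bcl2fastq 2.17.1.14 on build mm10, per the submitters' processing notes; the strand setting is not given in the sources used here. Both deposited tables come from the authors: raw counts for each gene, and CPM of the same genes, each library scaled by 1 constant, with blanks for 4455 genes at 0 counts throughout. Deposited start coordinates count from 0 and are printed from 1.

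Counts were tested with edgeR 4.0.16 (R 4.3.3), quasi-likelihood, TMM, filterByExpr, group as the only term, 15188 genes, called at an adjusted p under 0.05. CPM in the text use these factors. SE is the log2 fold change over the square root of F. Ratios to CD3 counts used an exact permutation test. The floor of 3 counts covers counting error only. The test was checked on simulated data. Members and lists were chosen with earlier results of these data known. Named genes were the members, the gene most like each, and a fixed set of partners and markers given by value; other list genes are named without values. Alternatives were other scalings, filters, tools (DESeq2 1.42.0, limma 3.58.1), a replicate block and libraries left out. A planned comparison of protein relatives was not run. Some items are not reported here.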

Additional observations from a re-analysis of the deposited data

How the results depend on the processing

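The 23 alternatives gave 4 members higher and 2 lower, except that leaving out mutant 1 gave 5 higher (range 4 to 5 over the libraries left out in turn, 2 to 2 for lower). Over them the log2 fold change ran from 6.60 to 8.48 for Arpp21, 4.89 to 6.81 for Aqp11, 2.19 to 2.55 for Themis, 2.69 to 3.34 for Thy1, -2.01 to -1.54 for Cd1d1 and -3.63 to -3.14 for Cd69, all called. Those 6 were also called without wild-type 1 and 2, which held the most pancreas signal. The uncalled genes changed sign: Tespa1 was 0.18 without mutant 1 and 0.09 with limma-voom sample weights, Cd5 -0.19 without mutant 2, and Cd24a -0.35 without mutant 1 and -0.19 with limma-voom sample weights. Leaving out 1 library gave -0.50 to 0.18 for Tespa1, -0.19 to 0.97 for Cd5 and -0.35 to 1.24 for Cd24a, which was 1.92 without wild-type 1 and 2 together (adjusted p = 0.0818, edgeR). Across all genes, 3038 were higher and 2924 lower at an adjusted p under 0.01, and leaving out 1 library gave 3635 to 5010 higher and 3674 to 4811 lower. Genes higher made up 4334 of 8724 calls with TMM, but 3153 beside 5129 lower with library size alone, which placed the median gene at -0.26, and 3636 beside 4964 with upper quartile scaling, at -0.18. The numbers in the labels did not pair the spleens: deviations of same-numbered spleens correlated at 0.04, -0.19 and 0.10. With the replicate block (spleens 1 to 3), 2945 genes were higher and 3108 lower, beside 3846 and 3791 without the block in the same spleens, with 4 and 2 members. All CD3 ratio differences kept their sign with Cd3e or Cd3d alone and with each library left out. Depth limits Arpp21 and Aqp11 in wild type, at 11 to 43 counts per library.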
